A study of Mus musculus with 6 samples.

Results

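The genes described here are the heat shock proteins, their J-domain co-chaperones, the BAG nucleotide exchange factors and the heat shock factors Hsf1 and Hsf2, measured in the paraventricular thalamus of mice with and without chronic constriction injury. The rule that picks them uses symbols only, although the gene family was taken up with earlier results of these data known. It takes names beginning Hspa, Hspb, Hspd, Hspe, Hsph, Dnaja, Dnajb or Dnajc and a digit, names beginning Hsp90, and Bag1 to Bag6, Hsf1 and Hsf2. This took 81 of the 21959 genes of the deposited table, of which 73 had enough reads to be tested. RNA was measured by bulk sequencing of poly-A selected transcripts in 3 libraries from mice with chronic constriction injury (CCI, a loose ligature around a peripheral nerve that gives lasting neuropathic pain; replicates 1 to 3) and 3 from untreated mice (control, replicates 4 to 6). Both groups have the wild-type genotype and neither carries a transgene in the labels, while strain, age, sex and the time after injury are not given in the sources used here. The design text counts 30 mice in each group without saying how they were shared out. The p-values below therefore reflect only how much the 3 libraries of a group differed, which may be technical.

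Molecular chaperones bind unfolded protein and help it fold, or pass it on for destruction. HSP70 proteins do so in cycles of ATP hydrolysis, in which a J-domain protein brings the client and triggers hydrolysis, and a BAG or HSP110 protein releases the nucleotide. HSP90 takes over late-folding clients such as kinases and steroid receptors, small heat shock proteins hold unfolded protein without ATP, and HSP60 with HSP10 forms the folding chamber of mitochondria. The heat shock factor HSF1 binds heat shock elements in the promoters of many of these genes, and in the endoplasmic reticulum (ER) the unfolded protein response raises a separate set through ER stress elements. In neurons the constitutive Hspa8, with the J-domain proteins Dnajc5 and Dnajc6, also serves synaptic vesicle fusion and clathrin uncoating.

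The CCI libraries held 7989139 to 10529886 counts each, the control libraries 12337448 to 15438268, and the TMM scaling factor ranged from 1.21 to 1.25 in the first and from 0.69 to 0.90 in the second. Control replicate 5 stood apart: of the 73 tested members it lay over 1.5-fold above both other controls for 11 and over 1.5-fold below both for 9. The libraries also differed in cell type markers, summed here as CPM (read counts scaled to a common TMM-adjusted library size). All 6 midline thalamus markers fell, with sums of 1140 to 1861 in CCI and 4414 to 7232 in control. Of 8 oligodendrocyte markers 6 rose, with sums of 18490 to 24364 in CCI and 7154 to 13908 in control, and of 7 tested cortical and hippocampal neuron markers 6 rose (161 to 194 against 58.4 to 75.7). Of 6 general neuron markers 1 rose and 2 fell (2963 to 3246 against 6530 to 8734), and of 8 astrocyte markers 2 rose and 2 fell (3265 to 3999 against 7497 to 9233). Single abundant genes weighed heavily in these sums. From control to CCI the mean of Snap25 fell from 5553 to 1472 CPM and that of Aldoc from 5333 to 1117 CPM. The neuron marker that rose was Map2, and the astrocyte markers that rose were Gfap and Aqp4. In the remaining lists 2 microglial markers rose and 1 fell of 8, 3 endothelial rose and 1 fell of 8, 2 mural rose and 2 fell of 7, 1 choroid plexus marker rose and none fell of 6, and 2 ependymal rose and none fell of 6. The choroid plexus sum was 284 in control replicate 6 against 2016 to 4127 in the other libraries. Of all these markers 1, the mural gene Tagln, had no read in at least 1 library. The part of cell composition in the chaperone results was not tested, and in bulk tissue fewer cells of a type and less RNA per cell cannot be told apart.

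On TMM-scaled counts more chaperone genes were lower than higher in CCI. Of the 73 tested members 9 rose, 32 fell and 32 did not pass edgeR's quasi-likelihood test at an adjusted p of 0.05. Over all 14259 genes tested 52.3% passed, with 27.0% called higher and 25.3% called lower, against 12.3% higher and 43.8% lower among the tested members. The median log2 fold change was -0.48 for the members and 0.06 for all genes tested. The CCI libraries lay entirely below control for 39 members and entirely above for 10, while the same held for 29.4% and 33.6% of all tested genes. Among the members that fell, the lowest CCI library was replicate 3 for 22 of 32 and the highest was replicate 2 for 21. Summed over all 81 genes, the members reached 9974, 11029 and 8415 CPM in CCI replicates 1 to 3 and 16536, 18529 and 17072 CPM in control replicates 4 to 6. Without TMM scaling the gap was smaller and the groups overlapped. The members then took 1.25%, 1.33% and 1.04% of all counts in CCI and 1.49%, 1.27% and 1.48% in control, in the same order.

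**Figure D1:**
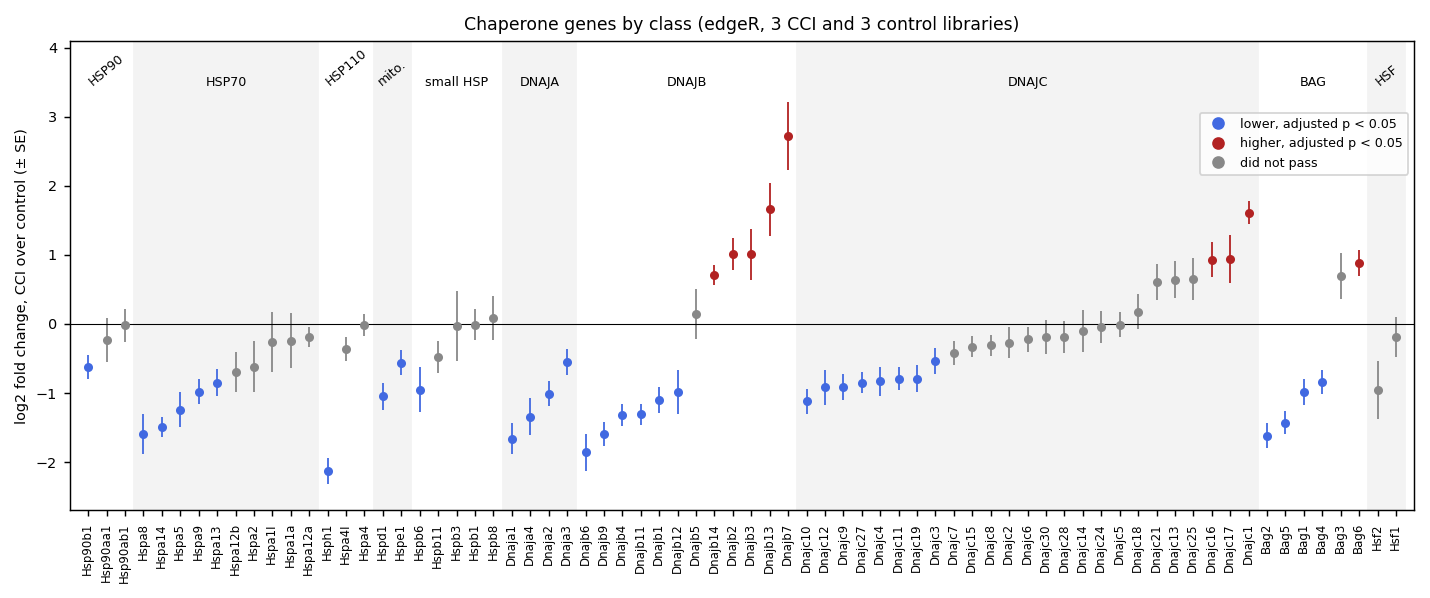
Tested members named in the text are placed by chaperone class (x axis; mito., mitochondrial chaperonins) with the log2 fold change of CCI over control (y axis, points) and its standard error (bars). Blue points fell, red points rose and grey points did not pass: falls run through most classes, from -2.13 for Hsph1, while the 9 rises lie in the DNAJB, DNAJC and BAG classes.

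The excess of falls depended on abundance and scale, and on the deposited FPKM more members were called higher than lower. Across all tested genes the fold change ran opposite to abundance (Spearman -0.52 over 14259 genes that share their libraries, given as a description), and the members were more abundant than most, with a median of 14.4 FPKM (reads scaled by gene length and library total, as deposited) against 4.62. Within the members the same correlation was -0.49 over 73 genes. When trends on gene length and mean abundance were removed in the fit, 12 members were higher and 17 lower (16.4% and 23.3%, against 18% and 19.1% of all genes), and the members' median was -0.06 against -0.03. With limma on log2(FPKM + 1) 18 were higher and 11 lower (24.7% and 15.1%), while 47.6% and 9.64% of all genes passed, and the median of all genes moved to 0.42. Of the 32 falls, 9 were called lower under each of the 16 alternative settings tried: Hsph1, Hspa14, Dnaja1, Dnajb4, Dnajb6, Dnajb9, Dnajb11, Bag2 and Bag5. Of the 9 rises, 4 were called higher under each: Dnajb2, Dnajb13, Dnajc1 and Bag6.

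**Figure D2:**
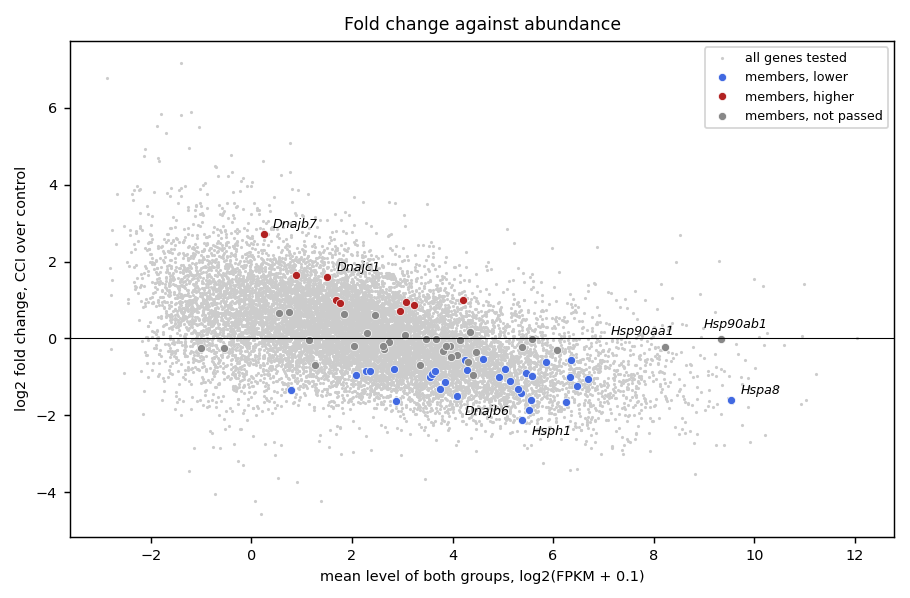
Each point is a tested gene, with its mean level in both groups as log2(FPKM + 0.1) on the x axis and its log2 fold change of CCI over control on the y axis. Grey points are all 14259 genes and coloured points the 73 members; fold changes of both sets decline with abundance, and Hspa8 lies below Hsp90ab1 at a like abundance.

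HSP70 genes fell or did not pass, and none rose. Of 10 tested, 5 fell and 5 did not pass, with a median of -0.77. On log2(FPKM + 1) 2 were lower and 1 was higher, while 9.64% of all genes were lower and 47.6% higher. Hspa8 (ENSMUSG00000015656, chromosome 9, 40712280 to 40721383, plus strand, GRCm39), which encodes the constitutive cytosolic HSC70, was the most abundant member by the mean of both groups. It stood at 496 FPKM in CCI and 995 FPKM in control, while Hsp90ab1 stood at 776 and 527 FPKM and so led in CCI. Its scaled level was 1716, 2182 and 1312 CPM in CCI replicates 1 to 3 and 5058, 5344 and 5335 CPM in control replicates 4 to 6. The groups did not overlap and the controls lay close together. The fall was 3.02-fold (log2 fold change -1.59 ± 0.29, SE, adjusted p = 0.00218). It was the only member of the 32 called lower in 15 of the 16 settings, the exception being the correction for length and abundance (-0.56, adjusted p = 0.115).

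Hspa14, whose protein works at the ribosome with Dnajc2, had 37.1, 42.5 and 36.4 CPM in CCI and 113, 101 and 112 CPM in control. No CCI library reached the controls, and the log2 fold change was -1.49 ± 0.15 (adjusted p = 0.000232). The mitochondrial HSP70 gene Hspa9 fell from 284 ± 21.2 to 144 ± 21.1 CPM (SD, n = 3; -0.98 ± 0.18), and the ER gene Hspa13 from 46.5 ± 10.3 to 25.7 ± 3.38 CPM (-0.85 ± 0.20).

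The stress-inducible HSP70 genes had few reads in both groups. Hspa1a had 53 counts in CCI and 60 in control, at 1.40, 2.1 and 1.23 CPM in CCI and 2.23, 2.25 and 1.20 CPM in control. The groups overlapped (-0.24 ± 0.40, adjusted p = 0.633). Hspa1b, with 11 and 14 counts, was not tested. The coding sequences of this pair are nearly identical, so the split of reads between them is uncertain. Per length, Hspa1a stood at 0.00131 ± 0.000113 of the Hspa8 level in CCI and 0.000525 ± 0.000173 in control. The testis-enriched Hspa1l (30 and 36 counts) and Hspa2 (-0.62 ± 0.37, with 116 CPM in control replicate 5 and at most 45.0 CPM in any other library) did not pass, nor did the distant relatives Hspa12a (-0.19 ± 0.15) and Hspa12b (-0.69 ± 0.29).

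**Figure D3:**
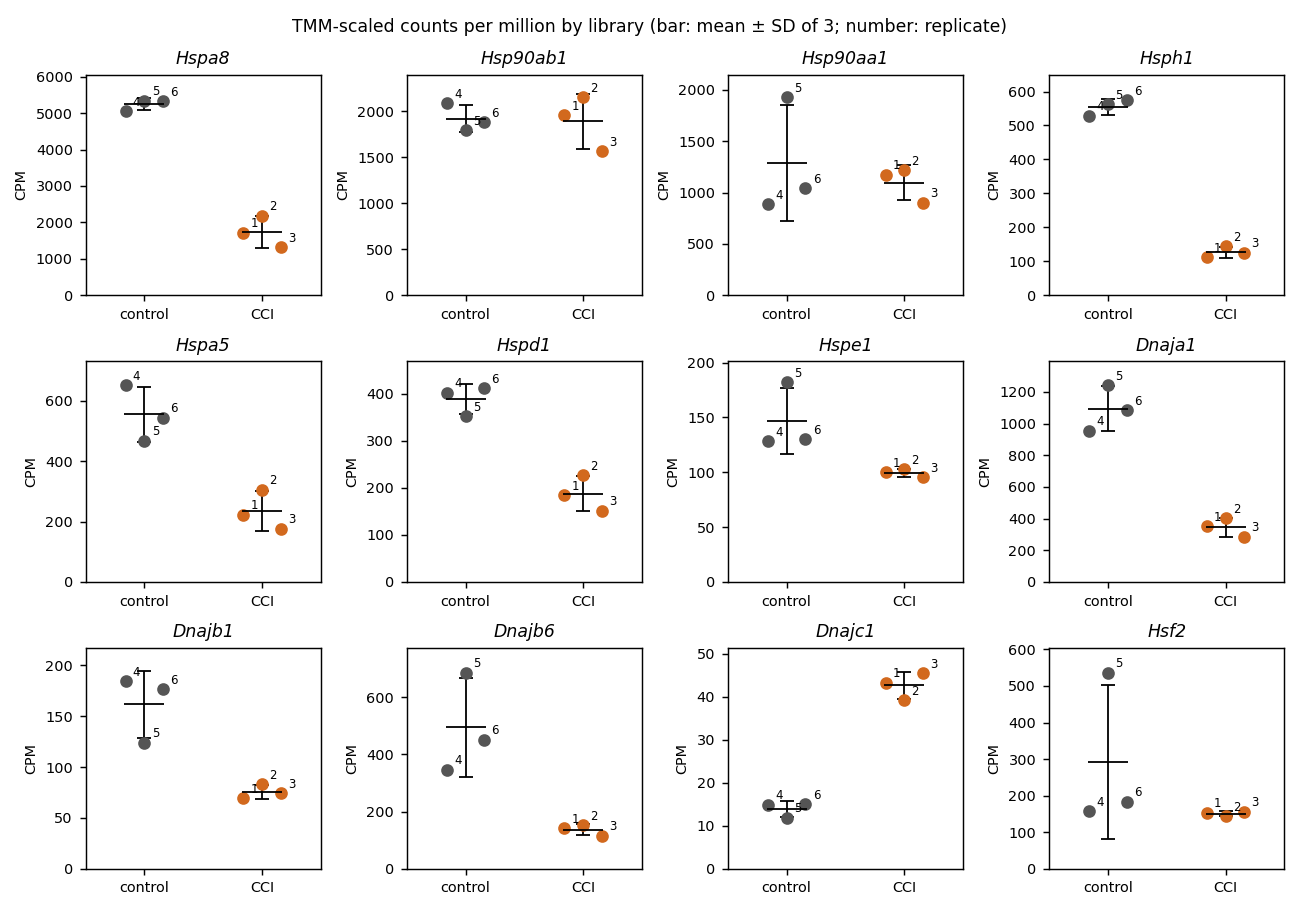
Levels of 12 members are shown in TMM-scaled CPM (y axes, from 0) for control (grey) and CCI (orange), with replicate numbers beside the points and the mean ± SD of 3 libraries as bars. Hspa8, Hsph1 and Dnaja1 separate the groups widely, Hsp90ab1 overlaps, and Hsf2 and Hsp90aa1 are high in control replicate 5.

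Of the 3 HSP110 genes, which encode exchange factors for HSP70, only Hsph1 passed. Hsph1 (ENSMUSG00000029657, chromosome 5, 149537752 to 149559841, minus strand) is the heat-inducible one, also known as HSP105. It had 111, 144 and 125 CPM in CCI and 529, 562 and 574 CPM in control. This was the largest fall among the members, 4.39-fold (-2.13 ± 0.19, adjusted p = 0.000185). The relatives Hspa4 (58.7 ± 7.04 CPM in CCI, 59.6 ± 4.62 in control, SD, n = 3; -0.02 ± 0.16) and Hspa4l (-0.36 ± 0.17, adjusted p = 0.114) did not pass. On log2(FPKM + 1) Hspa4 was called higher. Hspa4l was called lower without control replicate 5, and with all libraries under the DESeq2 Wald test and after correction for length alone. Per length, the ratio of Hsph1 to Hspa4 within a library, which no scaling between libraries can change, was 1.34, 1.75 and 1.88 in CCI and 7.26, 7.26 and 6.77 in control. The ratio therefore did not overlap between the groups.

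Of the 3 HSP90 genes 1 fell and 2 did not pass. The cytosolic Hsp90ab1, the constitutive isoform, had 1960, 2153 and 1567 CPM in CCI and 2087, 1795 and 1884 CPM in control. The groups overlapped and the log2 fold change was -0.02 ± 0.24 (adjusted p = 0.946). Its direction rested on scale: it was called higher on log2(FPKM + 1) (0.57, adjusted p = 0.0482) and after correction for length and abundance (1.19, adjusted p = 0.00519). The inducible Hsp90aa1 had 1174, 1219 and 899 CPM in CCI and 888, 1931 and 1041 CPM in control. The high value was control replicate 5. With all libraries its log2 fold change was -0.23 ± 0.32, against 0.16 without that library and 0.93 (adjusted p = 0.0154) after correction for length and abundance.

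The ER-resident Hsp90b1, which encodes GRP94, had 197, 195 and 177 CPM in CCI and 265, 325 and 285 CPM in control, and fell by 0.62 ± 0.17 on the log2 scale (adjusted p = 0.0136). That call was lost when CCI replicate 1 or 3 was left out (adjusted p = 0.0554 and 0.0512) and on log2(FPKM + 1), where it stood at -0.02, and the direction turned with the length and abundance correction (0.35, adjusted p = 0.0794). The ratio of Hspa8 to Hsp90ab1 per length was 0.611, 0.707 and 0.584 in CCI and 1.69, 2.08 and 1.98 in control. In each CCI library Hspa8 was thus below Hsp90ab1, and in each control library above it.

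The mitochondrial chaperonin pair was lower in CCI on the scaled counts. Hspd1, the HSP60 gene, had 184, 226 and 152 CPM in CCI and 402, 352 and 411 CPM in control (-1.05 ± 0.20, adjusted p = 0.00286). Hspe1, the HSP10 gene, had 100, 103 and 95.3 CPM in CCI and 128, 182 and 130 CPM in control (-0.56 ± 0.18, adjusted p = 0.0292). Both sets of libraries were apart, but the Hspe1 call was lost without CCI replicate 1, 2 or 3 (adjusted p = 0.0928, 0.0740 and 0.0887). Its direction turned on log2(FPKM + 1) (0.06) and after correction for length and abundance (0.40, adjusted p = 0.0438), where Hspd1 stood at 0.14 (adjusted p = 0.573). Hspd1 also did not pass on log2(FPKM + 1) (-0.46, adjusted p = 0.103).

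Hspd1 and Hspe1 lie head to head, overlap by 112 bp in the table and share a promoter, which is shown because it holds heat shock elements common to both. The element was searched as 3 GAA units in alternating orientation, 2 bases apart, with no mismatch on either strand, in RefSeq windows of 250 bases before to 50 after each annotated start (GRCm38.p6; 64 of the 81 members matched by symbol). It was found for 4 members, Hspd1, Hspe1, Hsph1 and Dnajb6, and for 179 of 27025 genes in all (0.662%). Of the 64 matched members 26 fell, 9 rose, 24 did not pass and 5 were not tested, and the 4 with the element were among those that fell. The Hspd1 and Hspe1 windows share 285 bases, identical on opposite strands. Capitals mark the matched bases, which in the shared promoter come from 2 overlapping matches, the first of them starting 89 bases before the Hspe1 start. The Hspe1 stretch is chr1:55087898-55088147 (plus strand), the Dnajb6 stretch chr5:29735812-29735897 (plus strand), and the Hsph1 match, just past its annotated start, is chr5:149636288-149636300 (minus strand).

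Hspe1: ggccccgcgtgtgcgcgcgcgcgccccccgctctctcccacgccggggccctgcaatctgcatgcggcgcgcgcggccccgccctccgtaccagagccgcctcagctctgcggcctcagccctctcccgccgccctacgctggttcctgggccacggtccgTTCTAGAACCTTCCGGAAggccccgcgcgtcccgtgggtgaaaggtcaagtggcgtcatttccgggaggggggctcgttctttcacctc

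Dnajb6: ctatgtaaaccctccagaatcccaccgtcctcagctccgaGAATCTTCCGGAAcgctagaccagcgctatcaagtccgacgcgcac

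Hsph1: TTCTGGAAAGTTC

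A looser search for 2 such units in a row, of which the longer element is a special case, matched 17 of 64 members and 17% of all genes. It matched 10 of the 26 members that fell, none of the 9 that rose, 5 of the 24 that did not pass and 2 of the 5 not tested. Among the matches were the classical heat shock genes Hsph1, Hspd1, Hspe1, Hspa1a, Hspb1, Dnaja1, Dnajb4 and Bag3. Their log2 fold changes ran from -2.13 for Hsph1 to 0.69 for Bag3. Matches describe letters in these windows and do not show binding.

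Most small heat shock protein genes did not pass or were not tested. Of 8 members 5 were tested, 1 fell and none rose. Hspb1, the HSP27 gene, had 13.6, 14.3 and 10.1 CPM in CCI and 12.2, 11.4 and 14.5 CPM in control. The groups overlapped and the means were alike (-0.01 ± 0.22, adjusted p = 0.982). Hspb8 (0.09 ± 0.32), Hspb11 (-0.48 ± 0.23), a component of cilium transport also named Ift25, and the low-count Hspb3 (-0.03 ± 0.50) did not pass either. Hspb6, the HSP20 gene, was called lower (6.80 ± 0.61 CPM in CCI, 13.2 ± 5.41 in control; -0.95 ± 0.33, adjusted p = 0.0399), although CCI replicate 3 (7.47 CPM) lay above control replicate 6 (7.03 CPM). Leaving out any library but control replicate 6 lost this call (adjusted p from 0.0542 to 0.111). Hspb2 (7 counts in each group) and Hspb7 (0 and 2) were not tested, and Hspb9 had no read, which allows up to 0.194 to 0.376 CPM, unscaled, in a library (3 counts of its total, counting error only).

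All 4 DNAJA genes, which encode the closest relatives of the bacterial J-domain protein DnaJ, fell. Dnaja1 (ENSMUSG00000028410, chromosome 4, 40722150 to 40737149, plus strand), the main cytosolic partner of Hspa8, had 350, 404 and 284 CPM in CCI and 957, 1242 and 1086 CPM in control. No library overlapped, and the fall was 3.16-fold (-1.66 ± 0.23, adjusted p = 0.000638). The ratio of Dnaja1 to Hspa8 per length was 0.101 ± 0.00797 in CCI and 0.104 ± 0.0110 in control (SD, n = 3), and its library values overlapped between the groups. Dnaja2 fell from 334 ± 22.7 to 166 ± 22.3 CPM (-1.01 ± 0.18) and the low-level Dnaja4 from 8.95 ± 1.62 to 3.54 ± 0.69 CPM (-1.34 ± 0.27). The mitochondrial Dnaja3 was at 88.5 ± 19.4 CPM in control and 60.4 ± 4.70 in CCI (-0.55 ± 0.19, adjusted p = 0.0376), a call that held without control replicate 5 and was lost without any other library (adjusted p from 0.0687 to 0.120). Dnaja4 is overlapped over 1581 bp on the opposite strand by Wdr61, which had 1211 counts in CCI and 5002 in control against 119 and 303 for Dnaja4 and fell by 2.16 on the log2 scale. Dnaja1 is likewise overlapped over 608 bp by Smu1, which had 2599 and 9175 counts against 11612 and 35737 for Dnaja1 and fell by 1.88. Dnaja3 overlaps Coro7 over 39789 bp, also on the opposite strand, and Coro7 rose by 1.09. In all 25 members overlap another gene of the table, and the part of shared reads in their values was not tested. Of the 4, 2 were lower and none higher on log2(FPKM + 1), where Dnaja3 stood at 0.06. After correction for length and abundance Dnaja2 stood at 0.11 and 2 of the 4 were lower.

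**Figure D4:**
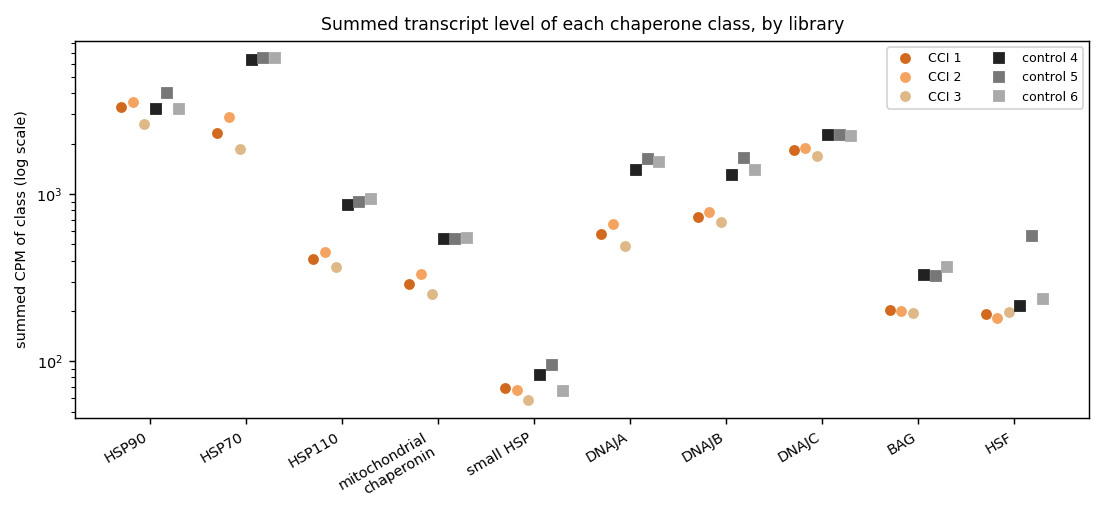
For each chaperone class (x axis) the summed TMM-scaled CPM of its members are shown on a log scale (y axis), 1 point per library, circles for CCI and squares for control. The HSP70, HSP110, mitochondrial chaperonin, DNAJA, DNAJB, DNAJC and BAG sums of all 3 CCI libraries lie below all 3 controls, the HSP90 and small HSP sums overlap, and the HSF sums are narrowly apart with control replicate 5 high. On the deposited FPKM, not drawn, the HSP70, HSP110, DNAJA, DNAJB and BAG sums stay below all 3 controls. There the DNAJC, HSP90 and small HSP sums of all 3 CCI libraries lie above all 3 controls, and the mitochondrial chaperonin and HSF sums overlap.

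DNAJB genes went both ways, with 5 rises and 6 falls among the 12 tested. Dnajb6, a suppressor of polyglutamine aggregation, had 142, 151 and 115 CPM in CCI and 346, 685 and 451 CPM in control. The controls were spread, with replicate 5 highest, but stayed above each CCI library (-1.86 ± 0.27, adjusted p = 0.000874). Dnajb1, the heat-inducible HSP40 gene, had 69.1, 82.9 and 74.0 CPM in CCI and 184, 124 and 177 CPM in control (-1.10 ± 0.19, adjusted p = 0.00195). The call was lost on log2(FPKM + 1) (-0.47, adjusted p = 0.142) and with the length and abundance correction (-0.30, adjusted p = 0.216). Dnajb4 fell from 181 ± 18.0 to 72.3 ± 4.11 CPM (-1.32 ± 0.16), and Dnajb12, which sits in the ER membrane facing the cytosol, from 56.6 ± 30.0 to 28.4 ± 1.99 CPM (-0.99 ± 0.32). For Dnajb12 the control mean was raised by replicate 5 (91.1 CPM, against 36.6 and 42.1), and without it the log2 fold change was -0.50. Leaving out any CCI library lost the Dnajb12 call (adjusted p from 0.0691 to 0.0913).

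Of the DNAJB genes that rose, Dnajb2, a neuronal J-domain protein that sorts clients to the proteasome, had 92.0, 98.4 and 96.3 CPM in CCI and 59.4, 31.6 and 51.0 CPM in control (1.01 ± 0.23, adjusted p = 0.00596). Dnajb14, an ER membrane protein like Dnajb12, rose from 85.2 ± 5.48 to 140 ± 7.50 CPM (0.71 ± 0.15), but not after correction for length and abundance (0.26, adjusted p = 0.163) or for length alone, where the sign turned (-0.08, adjusted p = 0.680). Dnajb13, a protein of sperm and cilia, rose from 2.07 ± 0.92 to 6.41 ± 1.23 CPM (1.66 ± 0.38). The ependymal marker sums overlapped, at 137 to 230 CPM in CCI and 77.1 to 246 CPM in control. Of those 6 markers Foxj1 (1.44 ± 0.36) and Hydin (2.34 ± 0.32) rose and 4 did not pass. The part of ependymal cells in the Dnajb13 rise was not tested. The testis genes Dnajb7 and Dnajb3 had 74 and 137 counts in CCI against 11 and 67 in control. Dnajb7 had 2.51, 2.19 and 1.93 CPM in CCI and 0.268, 0.118 and 0.524 CPM in control (2.72 ± 0.49, adjusted p = 0.00219), the largest rise among the members. It lies wholly within Xpnpep3 on the opposite strand, which rose by 1.31 (adjusted p = 0.00137), and without a stated strand setting reads of the pair cannot be told apart. Dnajb3 (1.01 ± 0.37, adjusted p = 0.0485), which overlaps the Ugt1a genes in the same way, still passed without control replicate 4 and lost its call without any other library (adjusted p from 0.0711 to 0.145). Dnajb5 did not pass (0.14 ± 0.36), with 11.4 CPM in control replicate 5 and 26.2 to 33.4 CPM elsewhere, and Dnajb8 had 1 read in all.

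DNAJC genes, which have a J-domain and otherwise varied parts, numbered 25 tested: 3 were called higher, 8 lower and 14 neither (median -0.22). By the FPKM scale with a pseudocount of 1, 8 of the 25 were higher and none lower. On that scale 47.6% of all genes were higher and 9.64% lower, and the median was 0.32 for DNAJC and 0.42 for all genes. The synaptic genes were among those that did not pass. Dnajc5, the cysteine string protein of synaptic vesicles, had 336, 327 and 306 CPM in CCI and 341, 279 and 356 CPM in control, overlapping (-0.01 ± 0.18, adjusted p = 0.969). It was called higher on log2(FPKM + 1) (0.58, adjusted p = 0.0411), as it was after the length and abundance correction (0.63, adjusted p = 0.0311). Dnajc6, the neuronal auxilin of clathrin uncoating, had 230, 262 and 190 CPM in CCI and 262, 261 and 271 CPM in control (-0.22 ± 0.18, adjusted p = 0.321), and stood at 0.49 (adjusted p = 0.0452) after that correction. Dnajc13, an endosomal protein, was at 0.64 ± 0.27 and the co-chaperone Dnajc7, which links HSP70 and HSP90, at -0.42 ± 0.17, and neither passed. Dnajc7 overlaps the myelin gene Cnp on the opposite strand, with 31308 Cnp counts in CCI and 12913 in control.

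The DNAJC genes that fell include Dnajc9, a histone chaperone (76.6 ± 11.7 CPM in CCI, 144 ± 25.4 in control; -0.91 ± 0.19), and Dnajc12, a partner of the aromatic amino acid hydroxylases (38.9 ± 12.8 and 73.8 ± 10.5 CPM; -0.92 ± 0.26). Dnajc27 (-0.85 ± 0.15) and 3 mitochondrial members fell too: Dnajc4 (-0.83 ± 0.21), Dnajc11 (-0.79 ± 0.16) and Dnajc19 (-0.79 ± 0.20), the last a relative of the inner membrane import motor. Dnajc4 and Dnajc19 did not keep their calls without CCI replicate 1 (adjusted p = 0.0511 and 0.0553). Dnajc1, an ER membrane protein whose J-domain faces the lumen, rose most clearly, with 43.2, 39.2 and 45.4 CPM in CCI and 14.9, 11.8 and 15.0 CPM in control (1.61 ± 0.17, adjusted p = 0.000273). On the opposite strand it is overlapped over 16735 bp by Mllt10, which rose by 1.20. Dnajc16 (0.93 ± 0.25, adjusted p = 0.0133) rose and lost its call without CCI replicate 3 (adjusted p = 0.0515). The splicing-related Dnajc17 (0.94 ± 0.35, adjusted p = 0.0468) held its call in leave-one-out fits without control replicate 5 alone (adjusted p from 0.0805 to 0.134 otherwise).

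Of the other DNAJC genes, Dnajc2 (-0.27), Dnajc8 (-0.31), Dnajc14 (-0.10), Dnajc15 (-0.33), Dnajc18 (0.18), Dnajc21 (0.61), Dnajc24 (-0.04), Dnajc25 (0.65), Dnajc28 (-0.19) and Dnajc30 (-0.19) did not pass. Without control replicate 5, Dnajc13, Dnajc21 and Dnajc25 were called higher and Dnajc7, Dnajc8, Dnajc14 and Dnajc30 lower. With all libraries Dnajc7 and Dnajc8 were called lower under the DESeq2 Wald test, and Dnajc13 and Dnajc21 higher with limma-voom. After correction for length and abundance Dnajc8 was called higher. Dnajc22 had 5 reads in CCI and 2 in control, and Dnajc5b and Dnajc5g, paralogs of Dnajc5, had none.

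BAG family genes, whose proteins release nucleotide from HSP70 and couple it to other pathways, had 1 rise and 4 falls among 6. Bag2, which inhibits the ubiquitin ligase CHIP, had 12.3, 13.2 and 9.94 CPM in CCI and 38.6, 35.1 and 35.1 CPM in control (-1.62 ± 0.18, adjusted p = 0.000287). Bag5 had 62.2, 67.6 and 51.0 CPM in CCI and 150, 154 and 183 CPM in control (-1.43 ± 0.17, adjusted p = 0.000414). No library of either gene overlapped. Bag1 fell from 57.2 ± 10.1 to 28.7 ± 4.53 CPM (-0.99 ± 0.19) and Bag4 from 44.4 ± 5.86 to 24.8 ± 2.73 CPM (-0.84 ± 0.17). Bag1 was called lower in 12 of the 16 alternative settings and Bag4 in 13. On log2(FPKM + 1) 2 BAG genes were lower and 2 higher (9.64% and 47.6% of all genes). After correction for length and abundance 3 were lower and 1 higher. Bag6, a holdase for tail-anchored and mislocalised membrane proteins, rose, with 65.8, 68.9 and 72.5 CPM in CCI and 41.2, 28.3 and 42.6 CPM in control (0.88 ± 0.19, adjusted p = 0.00452). Bag3, the stress-inducible member that directs selective autophagy, did not pass (5.21, 3.47 and 5.39 CPM against 3.12, 3.66 and 2.02 CPM; 0.69 ± 0.33, adjusted p = 0.109). It was called higher without control replicate 5 (0.86, adjusted p = 0.0488) and on log2(FPKM + 1) (0.75, adjusted p = 0.00578).

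Neither heat shock factor passed. Hsf1, the master regulator of the heat shock response, had 38.1, 37.1 and 42.4 CPM in CCI and 56.7, 24.4 and 52.8 CPM in control (-0.19 ± 0.29, adjusted p = 0.598). The low control value was replicate 5, and without it Hsf1 was called lower (-0.50, adjusted p = 0.00403). Hsf2, a developmental partner of HSF1, had 154, 143 and 156 CPM in CCI and 158, 536 and 183 CPM in control (-0.95 ± 0.42, adjusted p = 0.0876). Here replicate 5 was the high control, the groups were narrowly apart, and without that library the log2 fold change was -0.20 (adjusted p = 0.182). Hsf2 was called lower without control replicate 4, and with all libraries under the DESeq2 Wald test and after correction for length alone.

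A list of 10 members of the ER had 7 falls and 2 rises, Dnajc1 and Dnajc16. It does not hold the ER membrane genes Dnajb12, which fell, and Dnajb14, which rose, as given above. Hspa5, which encodes the ER chaperone BiP, had 223, 306 and 176 CPM in CCI and 652, 468 and 544 CPM in control (-1.24 ± 0.25, adjusted p = 0.00372). The groups were apart, with CCI replicate 2 nearest to the controls. Its co-chaperones Dnajb9 (197 ± 15.5 CPM in control, 65.5 ± 9.33 in CCI; -1.59 ± 0.17) and Dnajb11 (195 ± 1.89 and 78.6 ± 8.43 CPM; -1.31 ± 0.15) fell as well, as did the disulphide reductase gene Dnajc10 (-1.12 ± 0.18). Dnajc3, which also inhibits the kinase PERK, was called lower (-0.54 ± 0.19, adjusted p = 0.0404), a call lost when either of CCI 1 and CCI 3 or either of control 4 and control 6 was left out (adjusted p from 0.0679 to 0.129). Dnajc25 did not pass. Of these 10, 2 were lower and 3 higher on log2(FPKM + 1), with Hspa5 at -0.66 (adjusted p = 0.0713), and after correction for length and abundance 4 were lower and 1 higher, with Hspa5 at -0.23 (adjusted p = 0.474).

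The ER stress element, CCAAT and CCACG with 9 bases between them, was found in the RefSeq windows of 3 of 64 matched members, Hspa5, Hsp90b1 and Dnajc3, and of 37 of 27025 genes in all (0.137%). Each of the 3 was called lower, as were 26 of the 64 matched members in all. The calls held in 12 of the 16 alternative settings for Hspa5, 10 for Hsp90b1 and 7 for Dnajc3. The promoters of these 3 genes are shown with the element in capitals, which reads CGTGG to ATTGG where it lies on the opposite strand, as in 1 of the 2 matches of Hsp90b1. The stretches are chr2:34771985-34772083 (plus strand) for Hspa5, chr10:86705493-86705694 (minus strand) for Hsp90b1 and chr14:118937787-118937885 (plus strand) for Dnajc3, on GRCm38.p6. The matches begin 65 bases before the start of Hspa5, 105 before that of Dnajc3, and 212 and 107 before that of Hsp90b1. The cyclic AMP response element, searched as its full palindrome, was found for 1 member, Dnajc27, and for 2.03% of all genes.

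Hspa5: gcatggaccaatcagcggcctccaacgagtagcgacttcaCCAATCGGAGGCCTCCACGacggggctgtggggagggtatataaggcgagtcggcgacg

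Hsp90b1: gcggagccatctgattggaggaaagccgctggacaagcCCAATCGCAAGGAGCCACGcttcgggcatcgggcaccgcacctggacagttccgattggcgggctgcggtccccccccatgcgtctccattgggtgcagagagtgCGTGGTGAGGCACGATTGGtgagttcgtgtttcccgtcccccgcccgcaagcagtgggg

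Dnajc3: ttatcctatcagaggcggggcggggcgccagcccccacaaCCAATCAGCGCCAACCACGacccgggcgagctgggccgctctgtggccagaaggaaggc

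Genes that work with these chaperones but are named otherwise were read from the same test. None of 17 HSP90 co-chaperone genes rose, 11 fell and 6 did not pass (median -1.03). Stip1, whose protein HOP joins HSP70 to HSP90, fell from 549 ± 12.4 to 163 ± 27.9 CPM (-1.76 ± 0.19) and Chordc1 from 389 ± 109 to 120 ± 8.71 CPM (-1.70 ± 0.23). All 8 subunits of the cytosolic chaperonin TRiC, which folds actin and tubulin, fell (median -1.07), Cct7 by 1.60 ± 0.24 and Cct8 by 1.58 ± 0.22 on the log2 scale. On log2(FPKM + 1) 6 of the HSP90 co-chaperones and 4 of the TRiC subunits were lower, with 3 and 0 higher, and after correction for length and abundance 5 and 2 were lower, with 1 and 0 higher.

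Of 12 HSP70 co-factors 1 rose, 4 fell and 7 did not pass. Grpel1, the mitochondrial exchange factor, fell (-1.44 ± 0.19). St13, which stabilises HSP70, fell too (-2.47 ± 0.53), but with 8213 CPM in control replicate 5 against 2132 and 2297 CPM in the other controls. Of 6 prefoldin subunits 2 fell, Pfdn1 (-0.95 ± 0.24) and Pfdn6 (-0.78 ± 0.28), and of 7 mitochondrial quality control genes 5 fell, Clpx by 1.45 ± 0.16 and Yme1l1 by 1.22 ± 0.45 (log2), the latter with 1439 CPM in control replicate 5 against 409 and 449 CPM. Of 16 ER folding and unfolded protein response genes 3 rose, 9 fell and 4 did not pass (median -1.19). The ER-associated degradation gene Herpud1 fell from 826 ± 146 to 135 ± 24.5 CPM (-2.62 ± 0.23) and the calnexin gene Canx by 2.71 ± 0.50 on the log2 scale, again with a high control replicate 5 (8283 CPM, against 2442 and 2587). The stress sensor genes Ern1 (1.56 ± 0.29, with 275 counts in CCI and 92 in control) and Atf6 (0.95 ± 0.19) rose. Eif2ak3, the gene of the sensor PERK, did not pass (-0.23 ± 0.22, adjusted p = 0.396). After correction for length and abundance 9 genes of this ER list were lower and 3 higher. The counts lower and higher were then 4 and 1 for the HSP70 co-factors, 2 and 0 for mitochondrial quality control, and 0 and 3 for prefoldin. On log2(FPKM + 1) they were 8 and 4 for the ER list and 2 and 3 for the co-factors. Mitochondrial quality control had 2 and 0 on that scale, and prefoldin 0 and 2. Of all genes 9.64% were lower and 47.6% higher there.

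A list of 21 genes known to be raised by heat through HSF1 had 20 tested, with 11 falls, no rise under edgeR or the DESeq2 Wald test, and a median of -0.80 (0.06 over all genes tested). Among all genes tested with edgeR 25.3% fell and 27.0% rose. The 11 were Hspa8, Hsph1, Hspd1, Hspe1, Dnaja1, Dnajb1, Dnajb4, Stip1, Ahsa1, Chordc1 and Ubb. Hspa1a, Hspb1, Bag3 and Hsp90aa1 of this list did not pass, while the heat-inducible Hsph1 and Dnajb1 were among its falls. The split depended on the correction. After removal of length and abundance trends 4 were lower and 4 higher (19.1% and 18% of all genes), and the median was -0.25. On log2(FPKM + 1) 7 were lower and 3 higher, while 9.64% of all genes were lower and 47.6% higher. Without control replicate 5, 13 were lower and 2 higher (30.5% and 31.5% of all genes).

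**Figure D5:**
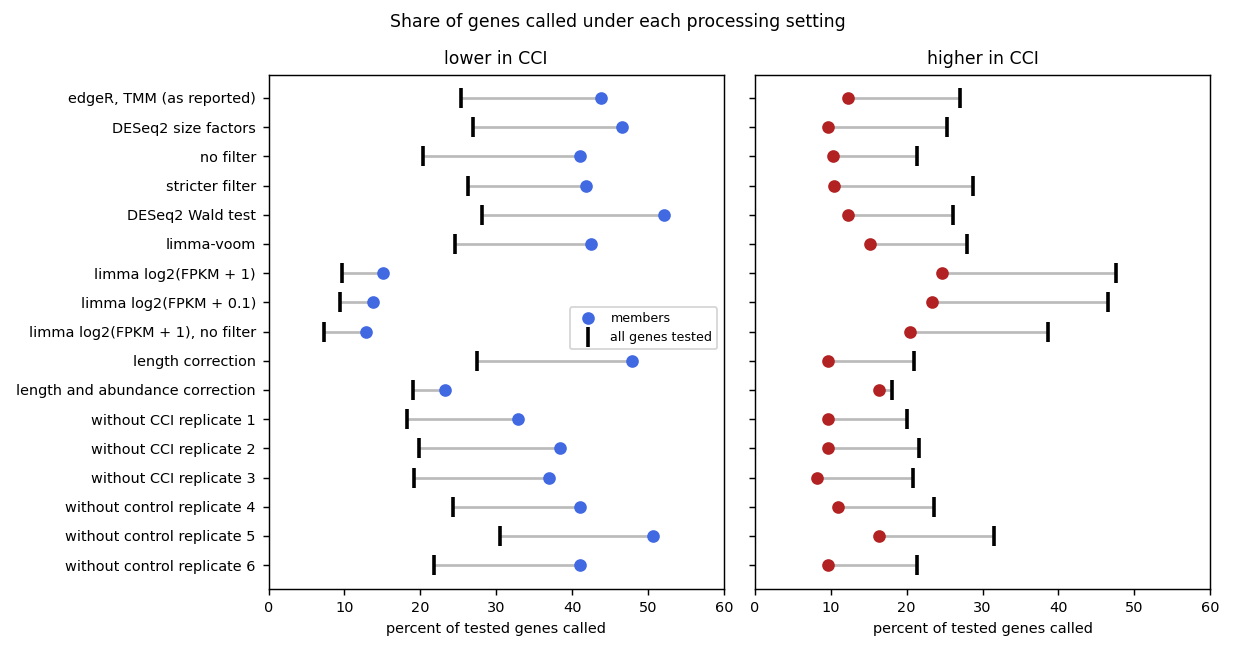
For each processing setting (y axis) the percentage of tested members called lower (left, blue) or higher (right, red) in CCI is set beside the percentage of all genes tested (black bars). Members exceed all genes among the falls by the least with the length and abundance correction (23.3% against 19.1%), and on the FPKM scales both shares of falls are small.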

How the data were processed

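Poly-A selected RNA was sequenced per the labels' protocols, and the submitters' processing notes list GRCm39 with StringTie 2.2.1, HTSeq 0.9.1, HISAT2 2.1.0, DESeq 1.38.3 and fastp 0.22.0. The strand setting of the counting is not given in the sources used here. Per the file headers the authors deposited whole-number read counts, used here as deposited, and FPKM values (count divided by gene length and library total). Reads were not analysed here.

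The whole table went through edgeR 4.0.16 (R 4.3.3): TMM scaling, filterByExpr, quasi-likelihood F-test and Benjamini-Hochberg adjustment over all genes tested, threshold 0.05. Standard errors are the log2 fold change over the root of F. Members were read out of that fit, and no set test was run. Alternatives were DESeq2 1.42.0 size factors and Wald test, no filter, a filter of 50 counts in 3 libraries, limma 3.58.1 (voom, and with trend on log2(FPKM + 1), also unfiltered, and log2(FPKM + 0.1)), offsets removing trends on gene length, or on length and mean abundance (mgcv 1.9.3), and each library left out. The code was tested on simulated data. Python 3.11.15, numpy 2.4.6, pandas 2.3.3 and matplotlib 3.10.9 made summaries and figures.

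Members and lists were chosen with earlier results of these data known. In each class the up to 3 largest rises and falls that passed without overlap at 1 FPKM or more are given with their values, beside 18 fixed members; from other lists, the 2 largest each way. A member and a gene of another list, both counted in the totals, are not reported here by name. Promoter windows are from RefSeq (GRCm38.p6), used by symbol.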

Additional observations from a re-analysis of the deposited data

How the results depend on the processing

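Of the 73 tested members 9 rose and 32 fell as reported. On log2(FPKM + 1), log2(FPKM + 0.1) and the unfiltered log2(FPKM + 1), 18, 17 and 16 were higher and 11, 10 and 10 lower, and with the length and abundance correction 17 were lower. The heat-inducible list gave 3, 2 and 2 higher and 7, 7 and 7 lower on those FPKM scales, and 4 higher and 4 lower with the correction. Of all genes 47.6%, 46.5% and 38.6% were higher and 9.64%, 9.43% and 7.32% lower on those scales. With the correction 18% were higher and 19.1% lower. When 1 library at a time was left out, 6 to 12 members were higher and 24 to 37 lower (8.22% to 16.4% and 32.9% to 50.7%), while 20% to 31.5% of all genes were higher and 18.2% to 30.5% lower. In those fits 0 to 2 genes of the heat-inducible list were higher, the 2 without control replicate 5. FPKM divides by the library total alone and so leaves out TMM scaling, whose factor was larger in every CCI library than in every control. Leaving it out raises CCI against control for all genes, not only for members. The median log2 fold change of all genes tested was 0.42, 0.65 and 0.27 on those FPKM scales, against 0.06 in the main fit. How much of the change in member calls this makes was not tested, nor was the cause of the other shifts.

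Some named members changed sign. On the same 3 FPKM scales the log2 fold change was 0.44, 0.44 and 0.44 for Hsp90aa1, 0.57, 0.57 and 0.57 for Hsp90ab1, 0.13, 0.30 and 0.13 for Hspa1a, 0.06, 0.06 and 0.06 for Hspe1, and 0.54, 0.59 and 0.54 for Hspb1. It was 0.58, 0.60 and 0.58 for Dnajc5, 0.36, 0.37 and 0.36 for Dnajc6, and 0.40, 0.49 and 0.40 for Hsf1. With the length and abundance correction it was 0.93 for Hsp90aa1, 1.19 for Hsp90ab1, 0.35 for Hsp90b1, 0.14 for Hspd1, 0.40 for Hspe1, 0.63 for Dnajc5, 0.49 for Dnajc6 and 0.11 for Dnaja2. With the length correction alone Hsp90ab1 stood at 0.11 and Hspb1 at 0.09, with the stricter filter Hsp90ab1, Hspb1 and Dnajc5 at 0.07, 0.08 and 0.08, and with limma-voom Dnajc5 at 0.01. With 1 library left out the value ran from -0.47 to 0.16 for Hsp90aa1 (above 0 without control replicate 5), from -0.13 to 0.10 for Hsp90ab1 (above 0 without CCI replicate 3), from -0.11 to 0.13 for Hspb1 and from -0.13 to 0.05 for Dnajc5 (both above 0 without CCI replicate 3 or control replicate 6). The FPKM values lack TMM scaling, as given above, which raises CCI against control for each of these genes. The cause of the sign changes under the other settings was not tested.

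No paired analysis was possible because the groups share no replicate numbers. With 3 libraries a group, totals of 7989139 to 15438268 counts, and a floor of 0.194 to 0.376 CPM from 3 counts, changes in low-count members such as Hspa1a, Hspa1l and Hspb3 were not detectable unless large.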
